A study of Mus musculus and Homo sapiens with 4 samples.

Results

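Emetine and cycloheximide, drugs that stop ribosomes during elongation, were compared by ribosome profiling in mouse embryonic stem (ES) cells. The comparison uses 2 of the 4 libraries of the series, chosen by their labels, with 1 library per drug. Both came from the E14 line on the 129/Ola background, kept without feeder cells in the presence of LIF, a cytokine that keeps ES cells undifferentiated. One culture was exposed for 60 s to cycloheximide at 100 µg/ml. The other was exposed for 60 s to emetine, whose dose is not in the labels. Both groups therefore share the line, the growth conditions and the time of exposure, and no library without a drug was analysed here. The purpose stated for the series is to see whether genuine footprints move when the elongation inhibitor is changed.

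Each file lists the same 93380 transcripts, and 3 parts of each were compared. The leader is the untranslated stretch before the coding region, and the trailer is the untranslated stretch after it. Parts listed as missing in either library were treated as absent. A part was compared where its reads summed over both libraries reached 100. Coding regions were present in 43857 transcripts and compared in 28604 (65.2%). Leaders were present in 38526 and compared in 10677 (27.7%), while trailers were present in 41870 and compared in 6308 (15.1%). Of the parts not compared, 6717 coding regions, 14982 leaders and 16554 trailers had no read in either library. The other 8536 coding regions, 12867 leaders and 19008 trailers had between 1 and 99 reads. Isoforms of a gene overlap, so these transcripts are not independent. The 28604 coding regions held 23806 different pairs of counts, the leaders 8522 and the trailers 5397.

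During translation a ribosome scans the leader, starts at a start codon, decodes the coding region and is released at the stop codon. Footprints in leaders are well known from upstream open reading frames, short coding stretches ahead of the main one that can limit its translation. Trailers normally hold few footprints, since ribosomes are released before them. Cycloheximide binds the exit site of the large ribosomal subunit and emetine binds the small subunit, and both block the step by which the ribosome moves to the next codon.

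The reads counted in coding regions summed to 163107357 with cycloheximide and 78702902 with emetine. Leaders held 5370141 and 3983984 reads, and trailers held 8483479 and 4850734. Overlapping isoforms can count a read more than once, so these sums are not the number of footprints. The cycloheximide library was 1.76-fold deeper by the median coding region, which was set to a log2 ratio of 0. Every ratio below is emetine over cycloheximide after this scaling, with a prior of 0.5 scaled reads added before the log2. With 1 library per drug there is no replicate check and no test, and no p-value is given. Differences below may reflect the cultures as well as the drugs, which cannot be told apart. Counting intervals and counting SDs cover counting error only, and PCR copies of a footprint are not independent. The identifiers in the files could not be paired with gene names (0 of 93380 occurred in the name tables used here). Messages are therefore described by their reads, and markers of ES cells could not be looked up.

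Relative to the median coding region, leaders were more occupied with emetine, and so were trailers except those with the most reads. The median log2 ratio was 0.39 for leaders (quartiles 0.023 and 0.76), a level 1.31-fold higher. For trailers it was 0.28 (quartiles -0.12 and 0.76), or 1.21-fold higher. This median depended on read number. Among trailers whose coding region was also compared, it was 0.72 at 100 to 174 trailer reads and -0.051 at 1307 or more. Coding regions had quartiles of -0.27 and 0.28. The ratio lay above 0 for 8127 leaders (76.1%) and 4266 trailers (67.6%), against 50.0% of coding regions, which the scaling fixes.

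**Figure D1:**
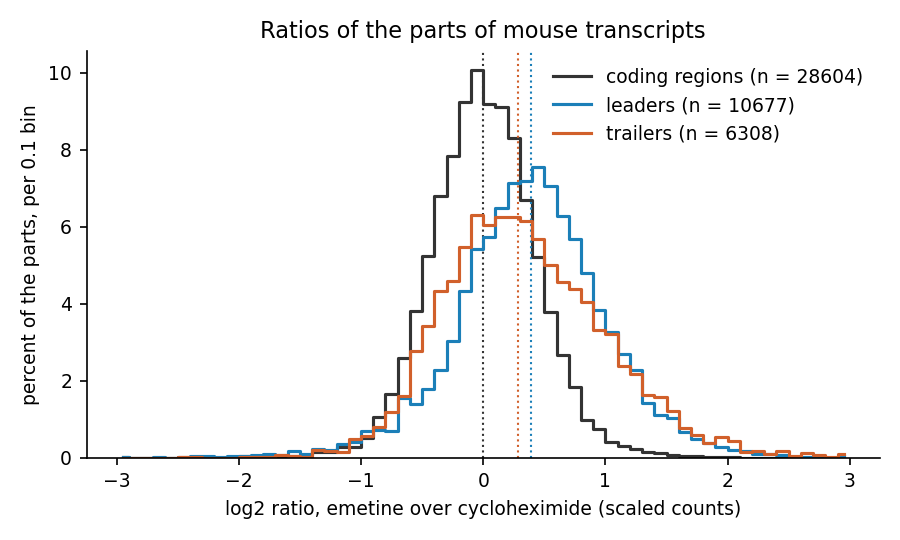
Distribution of the log2 ratio of emetine over cycloheximide for coding regions, leaders and trailers with 100 or more summed reads, as percent of each class per bin of 0.1; dotted lines mark the medians and the end bins hold all more extreme values. The leader and trailer curves are centred at 0.39 and 0.28, to the right of the coding curve, and both are wider than it.

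Differences of 2-fold or more were mostly upward in leaders and trailers. In coding regions their balance follows largely from setting the median to 0. Of the leaders, 1539 (14.4%) were higher with emetine by this measure and 209 (1.96%) were lower. Among trailers 1005 (15.9%) were higher and 81 (1.28%) lower. Among coding regions 418 (1.46%) were higher and 341 (1.19%) lower, against 511 and 294 when scaled to total counts and 381 and 237 with the cycloheximide library thinned to equal depth. Many of these lie close to the limit that counting sets. The exact 95% counting interval lay wholly beyond 2-fold for 606 of the higher leaders, 421 of the higher trailers and 120 of the higher coding regions. It did so for 55 of the lower leaders, 20 of the lower trailers and 87 of the lower coding regions. The spread within each class exceeded counting error. The scaled median absolute deviation of the log2 ratio was 0.41 for coding regions, 0.55 for leaders and 0.64 for trailers, against median counting SDs of 0.065, 0.16 and 0.16.

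The coding regions at the ends of the distribution had few reads. ENSMUST00000115729 had 20 coding reads under cycloheximide and 83 under emetine, which is 7.29-fold higher after scaling (exact 95% interval for counting error 4.43 to 12.5). Its leader, with 69 and 65 reads, differed in the same direction after scaling but less. ENSMUST00000090199 had 29 and 108 coding reads, 6.54-fold higher (interval 4.31 to 10.2), beside 37 and 39 leader reads. In both messages the coding region differed more than the leader ahead of it. At the other end, ENSMUST00000093268 had 101 coding reads under cycloheximide and 0 under emetine. Set against a floor of 3 emetine reads, it was 19.2-fold lower, and the lower end of the exact 95% interval for counting error was 15.3-fold. ENSMUST00000032500 had 170 and 6 coding reads, 16.1-fold lower (interval 7.26 to 44.6). The 2 coding regions with the most reads were both modestly lower. ENSMUST00000136312 had 933570 and 402252 coding reads, 1.32-fold lower (interval 1.316 to 1.326), and another transcript has the same counts. ENSMUST00000100497 had 826500 and 329407, 1.43-fold lower (interval 1.422 to 1.434), while its leader, with 5722 and 6975 reads, was higher after scaling.

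To see which kinds of messages differ, transcripts were ordered by 3 loads, each taken from the reads summed over both libraries. The coding load is the number of coding reads. The leader load and the trailer load are the leader and trailer reads per 100 coding reads. The files hold no lengths, so a long leader or trailer can carry a high load at a low density. In all, 24550 transcripts had all 3 parts present and 100 or more coding reads, and they were cut by each load into 4 load groups of equal size, numbered from the lowest. The remaining coding regions lacked a listed leader, a listed trailer or both. Their medians were close to this class: -0.00073 for 419 with a leader alone, 0.052 for 2744 with a trailer alone and -0.0045 for 891 with neither, against -0.0043.

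Messages with the most coding reads were lower with emetine, and the other load groups were slightly higher. A high count can come from a long or abundant message as well as from a densely translated one, and the files hold neither lengths nor RNA levels. The median coding log2 ratio was 0.080 in the load group with the fewest coding reads (100 to 718), 0.079 and 0.027 in the next load groups, and -0.15 in the load group with 6648 or more. In this last load group 1967 of 6138 coding regions (32.0%) lay above 0, against 55.1% in the lowest. Its quartiles, -0.37 and 0.080, overlap those of the lowest load group, -0.31 and 0.44. The step from the lowest to the highest load group was -0.23, and it was -0.11 with loads taken from emetine alone and -0.29 from cycloheximide alone. Differences of 2-fold or more, in either direction, were most frequent at the lowest coding load. The lowest load group held 299 of the 331 coding regions of this class that were at least 2-fold higher (4.87% of the load group) and 231 of the 285 lower ones (3.76%). In the highest load group 0 were 2-fold higher and 17 (0.28%) were 2-fold lower. The spread narrowed from a scaled median absolute deviation of 0.56 to 0.33 between these load groups, and the median counting SD from 0.17 to 0.026.

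**Figure D2:**
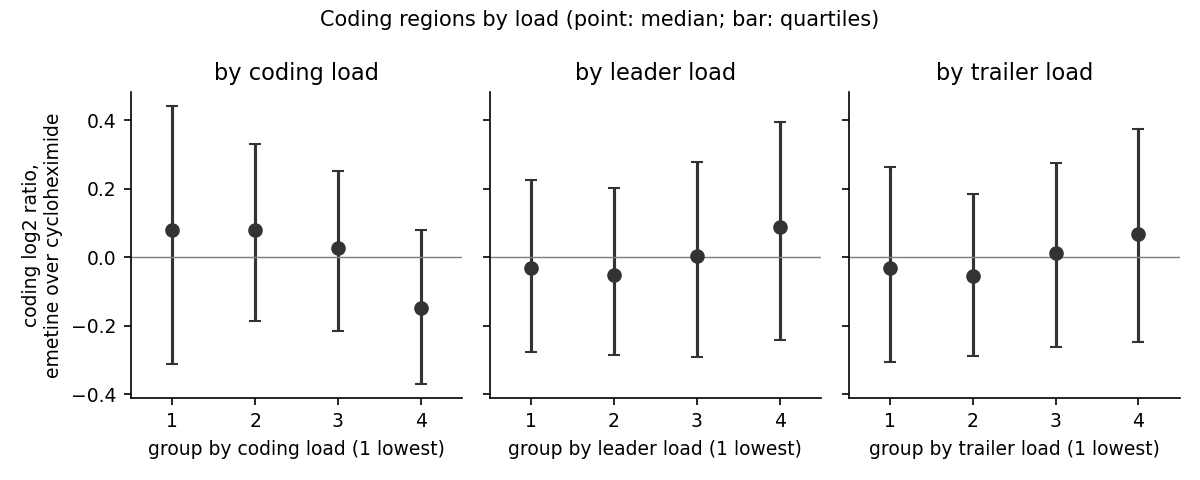
Median coding log2 ratio of emetine over cycloheximide (points) with quartiles (bars) in groups of 24550 transcripts ordered by coding load, leader load and trailer load. The lowest point is the group of highest coding load, at -0.15, while the groups of highest leader load and of highest trailer load lie at 0.089 and 0.068.

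Messages that carry many leader or trailer reads had slightly higher coding regions with emetine, though not at the highest coding load. By leader load the median coding log2 ratio was -0.032, -0.052, 0.0040 and 0.089 from the lowest to the highest load group, in which leaders hold a median of 21.8 reads per 100 coding reads. By trailer load it was -0.030, -0.054, 0.014 and 0.068. These steps are small beside the spread of single coding regions, whose quartiles in the group of highest leader load were -0.24 and 0.39. Between the highest and the lowest load group the step was 0.12 by leader load and 0.097 by trailer load, and 0.029 and 0.031 with loads from the emetine library alone. They also go along with coding load. The group of highest leader load had a median of 1218 coding reads, against 2447 in the lowest. Within the group of lowest coding load, the coding ratio was 0.062 at the lowest leader load and 0.15 at the highest. Within the group of highest coding load it was -0.16 at both ends of leader load (1661 and 713 transcripts). There the coding regions were lower with emetine whatever their leaders carried. From the lowest to the highest trailer load, the coding ratio went from 0.011 to 0.157 within the group of lowest coding load. In the next groups of coding load it went from 0.039 to 0.086 and from 0.016 to -0.0027. At the highest coding load it was -0.172 and -0.175, so the rise with trailer load lay at low coding load.

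Leaders followed a course of their own. In 10499 transcripts the leader and its own coding region could both be compared; the other 178 leaders had a coding region without enough reads or without a count. Load groups were cut anew over these transcripts, and likewise for trailers. The leader's log2 ratio exceeded that of its coding region by a median of 0.39 (quartiles -0.086 and 0.87). The difference was at least 2-fold upward in 2009 (19.1%) and at least 2-fold downward in 359 (3.42%). Across groups of coding load the median leader ratio itself stayed between 0.38 and 0.43, while the coding ratio went from 0.17 to -0.23. The difference between leader and coding region therefore widened with coding load, from 0.23 to 0.31, 0.40 and 0.59. In the highest of these load groups 82.4% of leaders exceeded their coding region, against 61.6% in the lowest. Each of these medians is smaller than the spread inside its load group, which was 0.65 to 0.77 as a scaled median absolute deviation. Ordered by leader load, the difference went from 0.48 in the lowest load group to 0.25 in the highest. This order is not stable: with loads taken from the emetine library alone the highest load group lay 0.19 above the lowest.

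Across these messages the leader ratio was not ordered like the coding ratio. The Spearman correlation between them was -0.0040 over 10499 transcripts and 0.0094 over the 1959 with 1000 or more leader reads. The leader load itself was nearly the same property of a message under both drugs, with a correlation of 0.924 between the libraries. For trailer load the same correlation was 0.980 over 5467 transcripts, so this was not particular to leaders. These correlations are descriptions across transcripts that share libraries and, for isoforms, reads. Among these 10499 messages, those rich in leader reads with one drug were thus rich in them with the other. Their median leader ratio was displaced upward with emetine.

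Single leaders differed far more than this. ENSMUST00000075829 had 114 leader reads under cycloheximide and 694 under emetine, which is 10.7-fold higher (interval 8.76 to 13.2). Its coding region, with 7679 and 4710 reads, had a ratio near the median. ENSMUST00000129827 had 14 and 87 leader reads, 10.9-fold higher (interval 6.17 to 20.8), beside 973 and 671 coding reads. The trailer of the latter, with 155 and 103 reads, also lay near its coding region in ratio, so the large difference was that of the leader. Other leaders were lower. ENSMUST00000003066 had 250 leader reads under cycloheximide and 14 under emetine, so it was 10.2-fold lower (interval 5.94 to 18.9), with 19011 and 9641 coding reads. ENSMUST00000048391 had 103 and 9 leader reads, 6.51-fold lower (interval 3.30 to 14.6), with 4260 and 1976 coding reads. Here too the coding regions differed far less than the leaders. The 2 most occupied leaders differed in opposite directions. ENSMUST00000047697 had 110285 and 49939 leader reads, 1.26-fold lower (interval 1.24 to 1.27), although its coding region had 0 and 4 reads. ENSMUST00000004389 had 34744 and 35650 leader reads, 1.8-fold higher (interval 1.78 to 1.83), against 2797 and 1315 coding reads.

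Trailers differed by their load. In 5467 transcripts the trailer and its own coding region could be compared, and the other 841 trailers had no such coding region. The median difference was 0.25 (quartiles -0.21 and 0.91). It was 0.43 with a minimum of 30 reads in both parts and 0.016 with a minimum of 500 in both. In all 1204 trailers (22.0%) exceeded their coding region by 2-fold or more and 189 (3.46%) fell short of it by as much. In the group of lowest trailer load, with a median of 1.06 trailer reads per 100 coding reads, the difference was 1.11, a level 2.16-fold higher. There 90.5% of trailers exceeded their coding region and 746 of 1367 (54.6%) did so at least 2-fold. In the next load groups the difference was 0.39 and 0.014. At the highest load, with at least 142 trailer reads per 100 coding reads, it was -0.12, and 41.1% lay above 0. The highest load group lay 1.33 below the lowest with loads from cycloheximide alone (difference -1.33) and less so with loads from emetine alone (-0.997). With 500 or more reads in both the trailer and its coding region, load groups were cut anew. The difference between the highest and lowest was then -0.50, against -1.23 at 100. That minimum also removes messages with few coding reads, so the change is not one of trailer reads alone. The quartiles of the lowest and highest load, 0.54 to 1.59 and -0.50 to 0.25, did not overlap. Along this order the median trailer ratio itself went from 0.85 to -0.013, while the coding ratio went the other way, from -0.28 to 0.10.

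**Figure D3:**
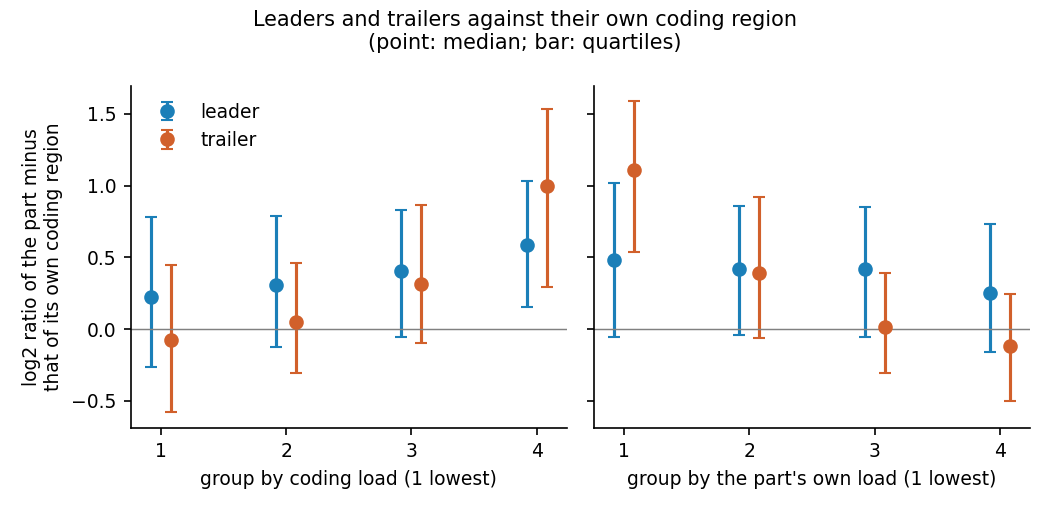
Median difference between the log2 ratio of a leader or trailer and that of its own coding region (points) with quartiles (bars), in groups of coding load (left) and of the part's own load (right), for 10499 leaders and 5467 trailers. Both differences are larger at higher coding load, reaching 0.59 for leaders and 0.996 for trailers, and the trailer difference goes from 1.11 to -0.12 with trailer load.

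Trailer load and coding load are tied by the read minimum, because a trailer of low load reaches 100 reads only beside a heavily read coding region. The group of lowest trailer load had a median of 19118 coding reads and 164 trailer reads, and the highest had 450 and 1991. Both orders were therefore crossed. Among the transcripts of highest coding load the trailer difference was 1.19 at the lowest trailer load (1082 transcripts), 0.31 in the next load group (178), -0.0022 in the one after it (82) and -0.070 at the highest (25). In the coding-load group below, the same steps were 0.81, 0.47, 0.013 and -0.089. At a fixed coding load, trailer load and the number of trailer reads are nearly the same order, so the crossing does not separate them. Ordered by trailer reads alone, the difference was 0.79, 0.53, 0.12 and -0.055 from the fewest reads to the most. Across coding load at one trailer load the difference had no common direction: it was 0.81 and 1.19 at the lowest load, lay between 0.31 and 0.77 in the group above it and between -0.15 and -0.070 at the highest. Leaders gave no such order: at the highest coding load the leader difference was 0.57, 0.61, 0.58 and 0.49 from low to high leader load.

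**Figure D4:**
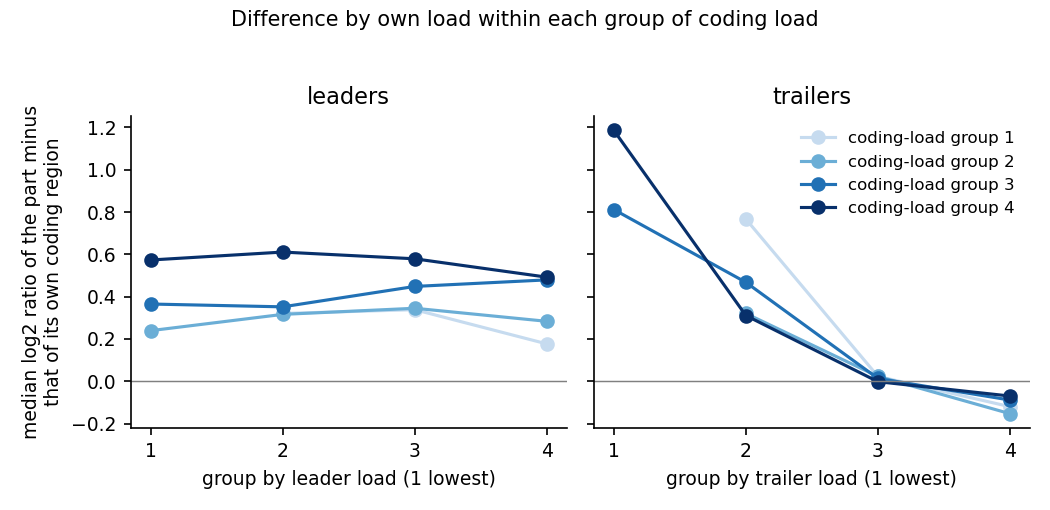
Median difference between the log2 ratio of a leader (left panel) or trailer (right panel) and its own coding region, by group of the part's own load, with 1 line per group of coding load; points rest on 25 to 1698 transcripts. The trailer lines all descend with trailer load, while the leader lines do not, and the leader line of highest coding load lies above the others.

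The Spearman correlation between the trailer ratio and the coding ratio was -0.019 over 5467 transcripts and 0.39 over 1618 with 1000 or more trailer reads. Over all 5467 the trailer ratio had a correlation of 0.31 with coding reads and the coding ratio one of -0.36, and over the 1618 the first of these was -0.073. For leaders with 1000 or more reads, the correlation of the leader ratio with the coding ratio was the 0.0094 given above. That of the leader ratio with coding reads was -0.072. In the load group of trailers with 1307 or more reads the median trailer difference was -0.055, with a scaled median absolute deviation of 0.42 against a median counting SD of 0.096.

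The most displaced trailers illustrate the range. ENSMUST00000037620 had 13 trailer reads under cycloheximide and 135 under emetine, which is 18.2-fold higher (interval 10.3 to 35.2), while its coding region had 863 and 662 reads and its leader 487 and 536. Another transcript has the same trailer counts. ENSMUST00000032265 had 20 and 121 trailer reads, 10.6-fold higher (interval 6.59 to 18.0), but only 33 and 0 coding reads. At the low end ENSMUST00000127689 had 133 and 14 trailer reads, 5.41-fold lower (interval 3.11 to 10.2), beside 146 and 52 coding reads, so that both parts were lower. ENSMUST00000133308 had 111 and 12 trailer reads, 5.26-fold lower (interval 2.90 to 10.5), and its coding region had 311 and 93. The trailers with the most reads again differed in direction. ENSMUST00000030127 had 262294 and 259769 trailer reads, 1.74-fold higher (interval 1.73 to 1.75), with 873 and 548 coding reads. ENSMUST00000131103 had 302709 and 111320 trailer reads, 1.55-fold lower (interval 1.54 to 1.56), and its coding region differed the same way, with 104383 and 39309.

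In 2302 transcripts all 3 parts had 100 or more reads, and these form 2297 different sets of counts. The coding region had the lowest of the 3 ratios in 1315 of them (57.1%) and the highest in 308 (13.4%). The trailer was highest in 1129 (49.0%) and the leader in 865 (37.6%). Both untranslated parts were at least 2-fold above their coding region in 241 transcripts (10.5%) and at least 2-fold below it in 15 (0.65%). Since both differences subtract the same coding ratio, they lean the same way by construction, and no correlation between them is given. Without that shared term, the leader and trailer ratios had a Spearman correlation of -0.045. The leader's ratio lay below that of its own trailer by a median of 0.15 (median difference -0.15), but with 500 or more reads in each part it lay above it by 0.26.

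**Figure D5:**
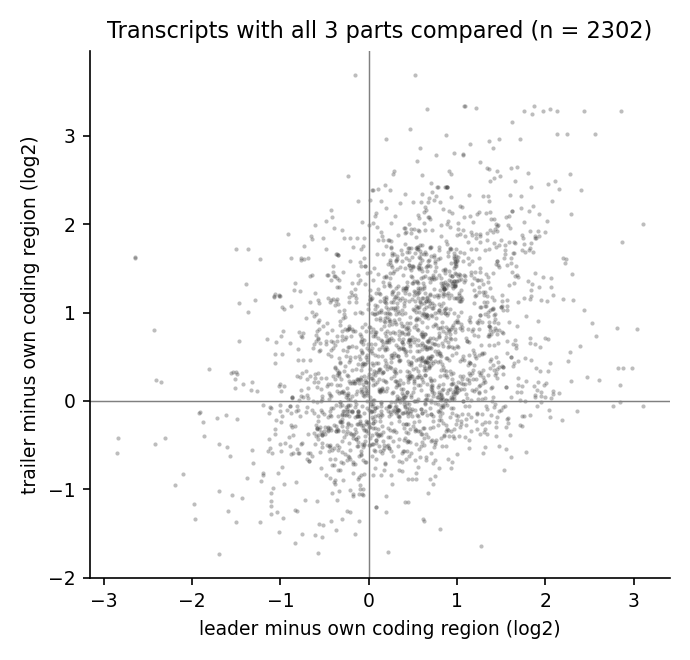
Difference of the leader (horizontal axis) and of the trailer (vertical axis) from their own coding region on the log2 scale, 1 point for each of the 2302 transcripts with all 3 parts compared. Most points, 1315, lie in the upper right, where both exceed the coding region; both axes subtract the same coding ratio.

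The messages in which both untranslated parts exceeded the coding region had more coding reads, and fewer leader and trailer reads per coding read, than those in which neither did. They had a median of 10253 coding reads, 8.98 leader reads and 2.64 trailer reads per 100 coding reads, and a median coding log2 ratio of -0.30. The 308 messages in which neither exceeded it had 1053 coding reads, 33.8 leader reads and 125 trailer reads per 100 coding reads. Their median coding ratio was 0.55. The coding ratio enters the choice of both sets, so the contrast in that value is a description.

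Messages whose untranslated parts outweigh the coding region differed from the rest. In 412 of the 24550 transcripts with all 3 parts present and 100 or more coding reads the leader held more reads than the coding region. Their coding regions were higher with emetine, with a median log2 ratio of 0.35 (quartiles -0.054 and 0.71) at a median of 422 reads. Their leaders had a median ratio of 0.42, so the difference between the parts was only 0.045, and 52.7% of leaders exceeded their coding region. In 8807 transcripts there was under 1 leader read per 100 coding reads, and 501 of their leaders had enough reads. These exceeded their coding region by a median of 0.74. A leader of so low a load reaches 100 reads only beside a heavily read coding region. In the group of highest coding load, leaders exceeded their coding region by a median of 0.59. Leader load and coding load are therefore not separated here. In 1194 of the 24550 the trailer held more reads than the coding region. The median ratio was 0.16 for their coding regions and 0.033 for their trailers, and 39.4% of these trailers exceeded the coding region. Coding reads enter both the choice of these 412 and 1194 messages and their coding ratios. The sums used for the choice draw more reads from the deeper cycloheximide library. The part of this in the ratios was not tested. In 16539 transcripts there was under 1 trailer read per 100 coding reads, and 636 of their trailers had enough reads. Of these trailers 93.9% exceeded their coding region, and the median difference was 1.30. They too reach 100 reads only beside a heavily read coding region. In the group of highest coding load, 85.4% of the compared trailers exceeded theirs.

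Counted as reads, the composition of messages differed most in relative terms where coding load was high. Over the group of highest coding load, leaders held 2.52% of all reads in the 3 parts under cycloheximide (exact 95% binomial interval 2.519 to 2.524), and under emetine 3.93% (3.927 to 3.937). Trailers took 1.57% (1.564 to 1.568) and 1.86% (1.855 to 1.862). Over the group of lowest coding load, leaders took 10.4% (10.34 to 10.41) and 12.7% (12.62 to 12.72), and trailers 44.0% (43.9 to 44.0) and 41.9% (41.8 to 41.9). In the load groups between them the trailer share was 19.7% and 20.5% in the second and 7.54% and 7.05% in the third. As pooled reads the leader share was thus higher with emetine at both ends of coding load, while the trailer share had no common direction across the load groups. These intervals treat overlapping isoforms as separate and are too narrow. Message by message, the leader share was higher with emetine in 12399 of 24549 transcripts (50.5%), lower in 7944 and equal in 4206, leaving out 1 transcript with no emetine reads in the 3 parts. In the group of highest coding load it was higher in 3958 of 6138 (64.5%) and lower in 1485. The median leader share there was 1.22% with cycloheximide and 1.70% with emetine. In the group of lowest coding load it was higher in 2357 of 6137 (38.4%), lower in 2207 and equal in 1573, and the median share was 3.37% with cycloheximide and 3.16% with emetine. There the messages taken one by one did not show the upward difference of the pooled reads. Shares at so few coding reads rest on few leader or trailer reads, and the emetine library is the shallower one. The part of depth in these shares was not tested. Trailer shares were higher with emetine in 11157 of 24549 transcripts (45.4%), lower in 8406 and equal in 4986. From low to high coding load they were higher in 27.1%, 38.4%, 50.3% and 66.0%.

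Parts on either side of the minimum of 100 reads had similar ratios. Leaders with 90 to 99 summed reads, just outside, had a median log2 ratio of 0.37 (451 leaders), and those with 100 to 109 reads had 0.44 (408). Trailers just outside had 0.63 (333) and just inside 0.72 (275). For coding regions the values were 0.0060 (295) and 0.054 (307). Trailers near the minimum were thus further above the median coding region than all compared trailers taken as 1 class.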

How the data were processed

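Ribosome footprints were obtained by RNase I digestion and pelleting of ribosomes, followed by linker ligation, reverse transcription, circularization and PCR, per the labels' protocols. The authors deposited 1 file per library with unnormalized read counts for the transcript, its coding region, leader and trailer, per the file headers. The submitters' processing notes name CASAVA 1.8, Bowtie2 2.0.6, TopHat2 2.0.7 and build mm10, with no role for any of them. For the counting tool, the annotation and multiply matching reads, the choice made is not given in the sources used. These choices decide how reads are divided among isoforms and parts.

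The 2 mouse libraries were joined on the transcript identifier. Log2 ratios were computed from these deposited counts with Python 3.11.15, numpy 2.4.6 and pandas 2.3.3. Parts with under 100 summed reads were left out, and the median coding region was set to 0. Exact (Clopper-Pearson) 95% intervals came from scipy 1.17.1, and a count of 0 was set against a floor of 3 reads. The counting SD is the Poisson approximation on the log2 scale. The calculations were tested on simulated data. TMM factors from edgeR 4.0.16 served as an alternative scaling. The transcripts named are the 2 highest, the 2 lowest and the 2 with the most reads in each part, 1 per pair of counts. Gene lists and markers that had been planned were not run, since identifiers could not be paired with names. The comparison, the loads and the lists were chosen with earlier results of these data known.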

Additional observations from a re-analysis of the deposited data

Results flagged for a closer look

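In the 24550 transcripts ordered by load, 10.3% of the reads with emetine (95% exact binomial interval 10.28 to 10.30) were assigned to no part of the message. With cycloheximide this share was 7.67% (7.666 to 7.674). This drew attention because no comparison above uses these reads. By group of coding load, from low to high, the share was 9.22%, 8.57%, 8.79% and 10.7% with emetine, and 7.72%, 7.68%, 7.64% and 7.67% with cycloheximide.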

How the results depend on the processing

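No paired analysis was possible because each drug has 1 library. Counts of parts at least 2-fold different are given as higher and lower with emetine, for coding regions, leaders and trailers in turn. With other read minimums they were 926 and 944, 2793 and 758, 2939 and 410 at 30 reads, and 69 and 88, 414 and 8, 142 and 21 at 500. With at least 10 reads in each library in place of a minimum on the sum they were 946 and 544, 2776 and 388, 2916 and 145. Thresholds of 1.5-fold gave 2335 and 2134, 3866 and 618, 2086 and 360, and 4-fold gave 9 and 16, 84 and 20, 90 and 2. Thinning the cycloheximide library to the depth of the other left 127 lower leaders in place of 209. Scaling to total counts added 0.047 to every ratio and TMM scaling shifted them by -0.0083; all counts of parts stayed within 1.5 times under these, under priors of 0 and 5 and with identical transcripts counted once.

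For the differences between parts, read minimums applied to every part, the coding region included. The leader difference from its coding region was 0.47 at 500 reads and 0.41 after thinning. The trailer difference was 0.43 at 30 reads, 0.016 at 500, 0.46 with 10 reads in each library and 0.22 after thinning. Leader minus trailer was -0.24 at 30 reads, -0.22 with 10 in each library and 0.26 at 500, where it changed sign. For the highest against the lowest load group, the coding ratio by leader load differed by 0.10 at 30 reads, 0.097 with 10 in each library, 0.16 with loads from cycloheximide alone and 0.029 from emetine alone. By trailer load it differed by 0.072, 0.061 and 0.031 at 30 reads, with 10 in each and with emetine loads. By coding load it differed by -0.25 at 500 reads, -0.28 with 10 in each, -0.29 and -0.11 with cycloheximide or emetine loads, and -0.20 with loads from both libraries at equal depth, an alternative added after seeing the data. The leader difference by leader load was -0.30 at 500 reads, -0.50 and 0.19 with cycloheximide or emetine loads and -0.15 at equal depth. The trailer difference by trailer load was -0.50 at 500 reads, -1.12 with 10 in each, and -1.33 and -0.997 with cycloheximide or emetine loads. Loads from 1 library share counting error with the ratios; the part of this in the changes was not tested. The medians printed here left the rank-based 95% interval of the main value; overlap of isoforms makes that interval too narrow.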

Other observations

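The libraries differ in which parts they list as missing. A leader was missing with cycloheximide and given as 0 with emetine in 493 transcripts, and the reverse held in 44. For trailers these numbers were 266 and 23, and for coding regions 1 and 1. In every one of these the whole transcript had 0 reads in the library that gave a 0. They were not taken as present.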
